A study of Homo sapiens with 6 samples.

Results

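The translation initiation factors were described in HCT116, a cell line of human colorectal cancer, after stable introduction of EPHX2, the gene of soluble epoxide hydrolase (overEXP group), and in HCT116 cells with an empty vector (NC group). Members were taken by name, as rows of the gene table whose symbol begins with EIF1 to EIF6. Of 104 such rows, 5 of the EIF2AK name family, 3 antisense or divergent transcripts and 44 pseudogenes were left out, and 52 protein-coding genes of the 38041 in the table remained. By the study's methods the vectors were lentiviral and infected cells were selected with puromycin, whereas 1 field of the labels calls the NC cells untreated. There were 3 libraries in each of the 2 groups. The study calls the libraries of a group separate cell lines, but the labels do not say how far these were derived independently, so a p-value sets the difference against a spread among libraries that may be partly technical. Expression is given as FPKM, the fragments per kilobase of exon, scaled by the number of mapped reads of the library, that the authors deposited. The read depth is unknown from such values, and no counting error can be given.

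Initiation is the step at which a ribosome is placed on the start codon of a messenger RNA. The complex eIF2 brings the initiator transfer RNA to the small ribosomal subunit, eIF1, eIF1A, eIF3 and eIF5 assemble there with it, and the eIF4F complex of the cap-binding protein eIF4E, the scaffold eIF4G and the helicase eIF4A recruits the mRNA by its cap. After the start codon is found, eIF5B joins the large subunit, and eIF2B recharges eIF2 with GTP. Cells slow this step by phosphorylating eIF2, which then blocks eIF2B, and by letting the 4E-BP proteins hold eIF4E. Several genes of the translation machinery begin their mRNA with a terminal oligopyrimidine (TOP) tract, a C followed by a run of pyrimidines, through which mTORC1 and LARP1 control their translation.

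In overEXP cells, EIF4G1, EIF3J and EIF1AD fell, and none of the other members passed the test in either direction. Of the 52 members, 48 reached 1 FPKM in 3 or more libraries. Each was tested by limma, on the log2(FPKM + 1) scale with Benjamini-Hochberg adjustment, in a fit of all 12281 genes that did so. The 3 lower members were 6.25% of the 48, where 2.98% of all genes tested were lower, and no member was higher, where 1.25% of all genes were. At an unadjusted p under 0.05, 14 members were lower, where 16.4% of all genes were, and none was higher, where 6.55% of all genes were. These counts depended on the scaling of the libraries, with 23 members lower and none higher after rescaling to the same sum (TPM) and 7 lower and 6 higher after median-of-ratios scaling. All these changes are small. The log2 fold changes of the 48 members lay between -0.35 and 0.15, with a median of -0.10, beside -0.05 over all genes tested. Single libraries decided the size of this gap of 0.051. It was 0.0064 without overEXP replicate 2 (-0.067 for members and -0.061 for all genes), 0.012 without overEXP replicate 3 and 0.033 without NC replicate 2. The fold changes of 37 members were negative and those of 11 positive, and 77.1% of members and 61.6% of all genes were on the negative side. The number of negative members also depended on the scaling, with 45 after rescaling to TPM, 28 after median-of-ratios scaling and 33 after quantile normalization, while the members' median lay 0.04 to 0.07 below that of all genes in each. Every overEXP library lay below every NC library for 17 members (35.4%, against 21.7% of all genes), and above every NC library for 1 member, EIF1 (2.08%, against 9.23% of all genes).

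**Figure D1:**
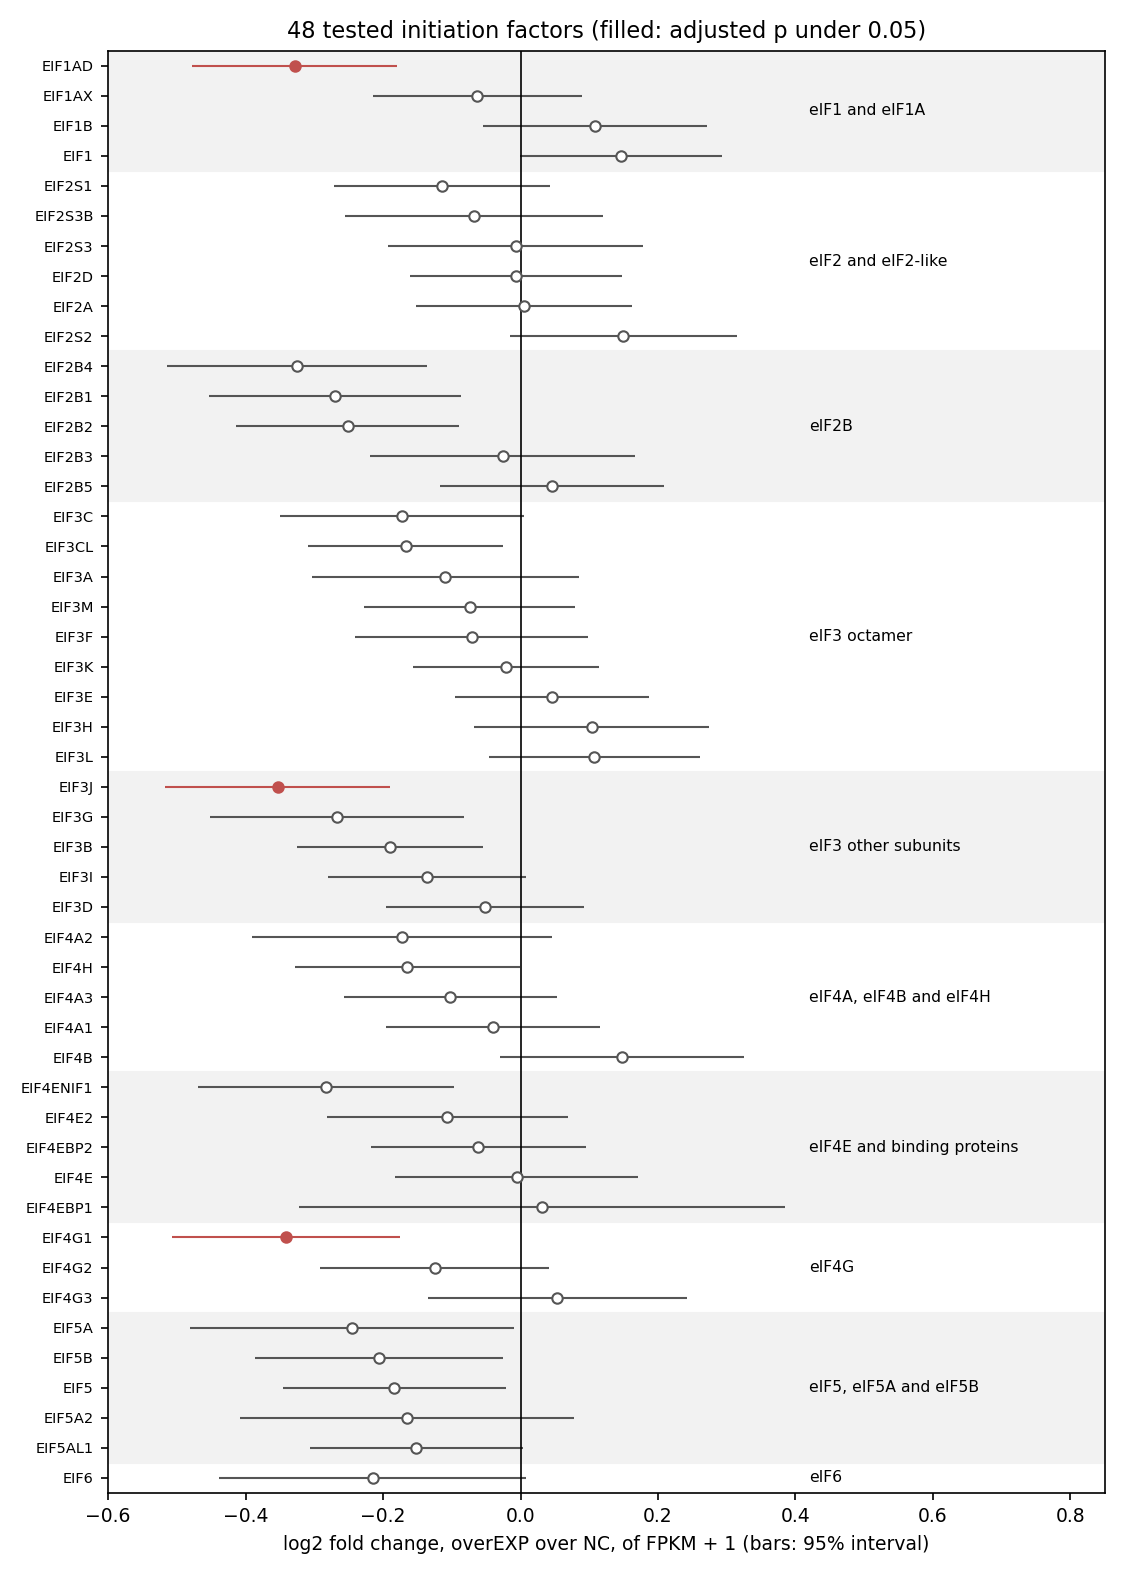
Log2 fold change of FPKM + 1 in overEXP over NC (horizontal axis) for the 48 tested members, grouped by factor, with the 95% interval from limma as bars. EIF1AD, EIF3J and EIF4G1 (filled) passed an adjusted p of 0.05, all between -0.35 and -0.33, and the intervals of 34 members cross 0.

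The sequences at the annotated starts were not used by the naming rule. They are shown for the 3 lower members and for members with a TOP-like start, a grouping made after the values were seen. The windows come from RefSeq on GRCh38.p14, read 5′ to 3′ on the gene's strand, with 10 bases before the annotated start and 20 from it on. Capitals mark a TOP-like start, taken here as a C at the start followed by at least 4 pyrimidines.

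EIF4B, chr12:53006446-53006475, plus strand: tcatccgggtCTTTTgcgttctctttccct
EIF2S3, chrX:24054946-24054975, plus strand: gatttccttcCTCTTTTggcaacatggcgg
EIF2A, chr3:150546777-150546806, plus strand: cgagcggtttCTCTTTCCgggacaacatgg
EIF3D, chr22:36529147-36529176, minus strand: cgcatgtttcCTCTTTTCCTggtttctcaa
EIF3F, chr11:7987327-7987356, plus strand: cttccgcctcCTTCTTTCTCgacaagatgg
EIF3K, chr19:38619178-38619207, plus strand: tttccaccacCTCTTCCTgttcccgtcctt
EIF4G1, chr3:184314596-184314625, plus strand: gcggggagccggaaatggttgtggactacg
EIF4G1, chr3:184315154-184315183, plus strand: gggccgaccctcacttgcctgaaaccggct
EIF4G1, chr3:184320253-184320282, plus strand: ctggatctgggccctgcccccagagatcag
EIF3J, chr15:44537137-44537166, plus strand: ccgccgtgctaactcctcgctagctctccc
EIF1AD, chr11:66002138-66002167, minus strand: cagcgccggaagtacggttttcggagggat

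A start window was matched for 44 of the 52 members by symbol, with 60 windows in all, and EIF2S2, EIF3A, EIF3CL, EIF3E, EIF3G, EIF3H, EIF3L and EIF4EBP1 had none. A TOP-like start was present in 10 of these windows (16.7%) and in 4.07% of the 35116 windows of the table, which also cover genes not tested here. Among tested genes with a window, 10 members and 684 of all genes had a TOP-like start, and 30 members and 8139 of all genes another start. The 10 member windows belonged to 10 genes (22.7% of the 44). Besides the 6 printed, these genes were EIF2D, EIF2S3B (a copy of EIF2S3, with another annotated start that is not TOP-like), EIF3M and EIF4A2. Their log2 fold changes had a median of -0.04 (from -0.17 to 0.15), 8 of the 10 were negative, and for none of the 10 did the groups separate. The 30 tested members with another start had a median of -0.16, 26 of the 30 were negative, and in 15 of them (50%) every overEXP library lay below every NC library. Over all genes tested, the median was -0.03 with a TOP-like start (684 genes) and -0.06 with another start (8139 genes), and 17.5% and 23.6% of them had overEXP below NC in every library. The split by start was made after the values were seen and is given as a description. The start in these cells was not measured, and a transcript can begin at another base.

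**Figure D2:**
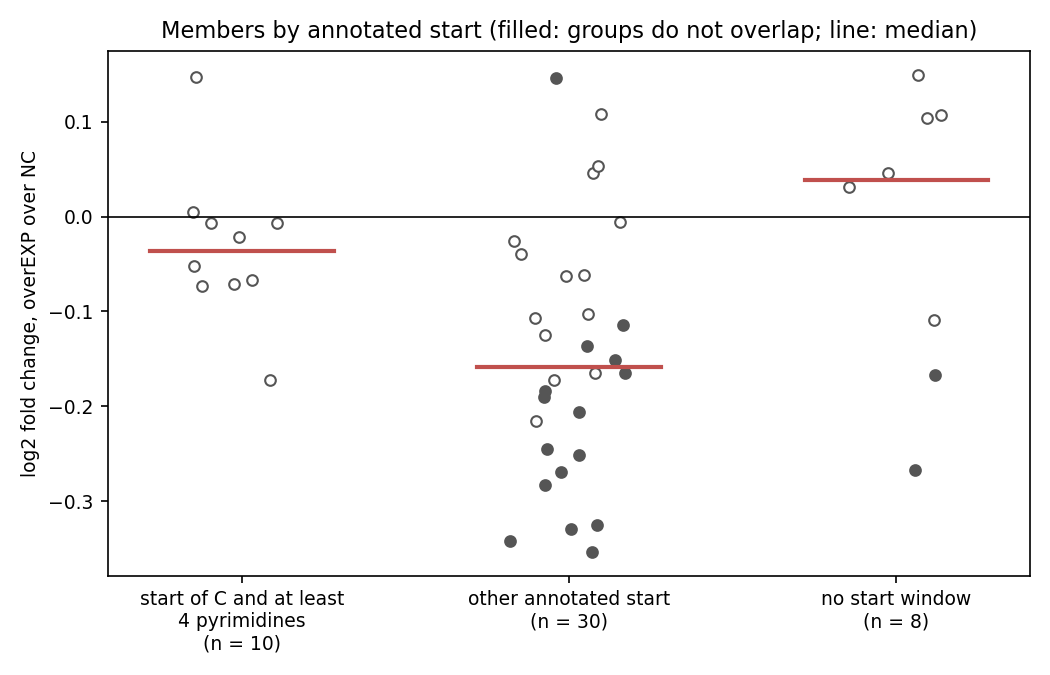
Log2 fold change in overEXP over NC (vertical axis) of the 48 tested members by the sequence at the annotated RefSeq start, with lines at the medians. The 10 members with a C and at least 4 pyrimidines lie between -0.17 and 0.15 and none is filled (filled, the groups do not overlap), whereas 15 of the 30 members with another start are filled below 0, and 8 members have no start window here.

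Of the members, EIF3E, EIF3F, EIF3H and EIF4B were taken as established TOP transcripts in human cells, a short list that may not be complete. Their median log2 fold change was 0.07, 3 of the 4 were positive, and the groups overlapped for all 4. EIF4B, which stimulates the helicase eIF4A, had 94.2, 104 and 110 FPKM in overEXP replicates 1 to 3, against 89.6, 92.8 and 94.6 FPKM in NC replicates 1 to 3. The overEXP replicate 1 value lay just under the highest NC value, and the difference did not pass (log2 fold change 0.15, standard error 0.08, adjusted p = 0.295).

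The bases upstream of the first annotated start of EIF4G1 and of the start of EIF3J are shown because these 2 genes fell and carry matches to known promoter elements. Searched on both strands in 250 bases before the start were the E-box CACGTG, bound by MYC and related factors, the GC box GGGCGG, the CCAAT box CCAAT, the TATA box TATAAA, the ETS motif CCGGAAG, the NRF1 motif and the ATF4 element TGATGNAA. Capitals mark the matches, which do not overlap each other in these 2 windows.

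EIF4G1, chr3:184314356-184314605, plus strand: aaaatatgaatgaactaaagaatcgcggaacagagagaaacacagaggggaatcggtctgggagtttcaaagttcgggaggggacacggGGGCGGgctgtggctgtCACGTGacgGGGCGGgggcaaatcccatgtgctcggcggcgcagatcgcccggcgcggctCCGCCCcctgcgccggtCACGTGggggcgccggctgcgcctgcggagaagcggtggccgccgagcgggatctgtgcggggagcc
EIF3J, chr15:44536897-44537146, plus strand: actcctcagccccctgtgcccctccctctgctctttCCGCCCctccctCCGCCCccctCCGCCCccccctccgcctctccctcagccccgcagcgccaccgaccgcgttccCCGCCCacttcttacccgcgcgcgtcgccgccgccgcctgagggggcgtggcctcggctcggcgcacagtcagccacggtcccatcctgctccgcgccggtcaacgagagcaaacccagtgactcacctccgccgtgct

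This first EIF4G1 window held 2 E-boxes and 3 GC boxes, and the EIF3J window 4 GC boxes. The window of the second EIF4G1 start (chr3:184314914-184315163) held 3 GC boxes and no E-box. That of the third start (chr3:184320013-184320262) held none of the 7 motifs. None of the 7 motifs matched in the EIF1AD window, which ends just before the annotated start. The EIF1AD start window printed above holds the ETS motif CCGGAAG across that start, where the search did not reach. An E-box was found in 11 of the 60 member windows (18.3%) and in 6.34% of all windows of the table, a GC box in 65% and 42.6%, a CCAAT box in 33.3% and 32%, and a TATA box in 3.33% and 10.7%. The ETS motif stood in 18.3% of member windows and 8.52% of all windows, the NRF1 motif in 15% and 5.07%, and the ATF4 element in 1 member window (1.67%) and 3.14% of all. All windows of the table include those of genes not tested here, so these shares do not compare members with tested genes alone. Of the 10 tested members with an E-box, 8 had negative log2 fold changes and 2 positive, with a median of -0.05. Over all 48 tested members 77.1% were negative, with a median of -0.10, and over all genes tested 61.6%, with a median of -0.05. Among the members with an E-box, EIF4G1 passed the test, at -0.34, EIF4H was apart between groups at -0.16, and the positive ones were EIF4B at 0.15 and EIF1B at 0.11.

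The levels of the factors differed far more between members than between groups. EIF5A, a factor that carries the modified lysine hypusine and helps ribosomes past difficult peptide bonds, had the highest mean over the 6 libraries, 296 FPKM, and its paralog EIF5A2 the lowest among tested members, 2.4 FPKM, a ratio of 123. After EIF5A came the RNA helicase cofactor EIF4H (132 FPKM), the helicase EIF4A1 (131), EIF3I (129), EIF3A (108) and EIF4B (97.5). The 4 members under the filter, EIF1AY, EIF4E1B, EIF4E3 and EIF4EBP3, had no value above 1.05 FPKM in any library. Summed over the 52 members, the FPKM was 2109, 2159 and 2194 in overEXP replicates 1 to 3, against 2361, 2296 and 2290 in NC replicates 1 to 3. This was 0.655%, 0.684% and 0.761% of all FPKM in overEXP and 0.836%, 0.826% and 0.825% in NC. Mitochondrially encoded RNA took 34.9% to 39.9% of FPKM in overEXP libraries and 29.6% to 34.6% in NC libraries. Without it the members' share was 1.06%, 1.14% and 1.17% in overEXP and 1.19%, 1.23% and 1.26% in NC, still without overlap. The part of the mitochondrial share in the single differences was not tested.

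**Figure D3:**
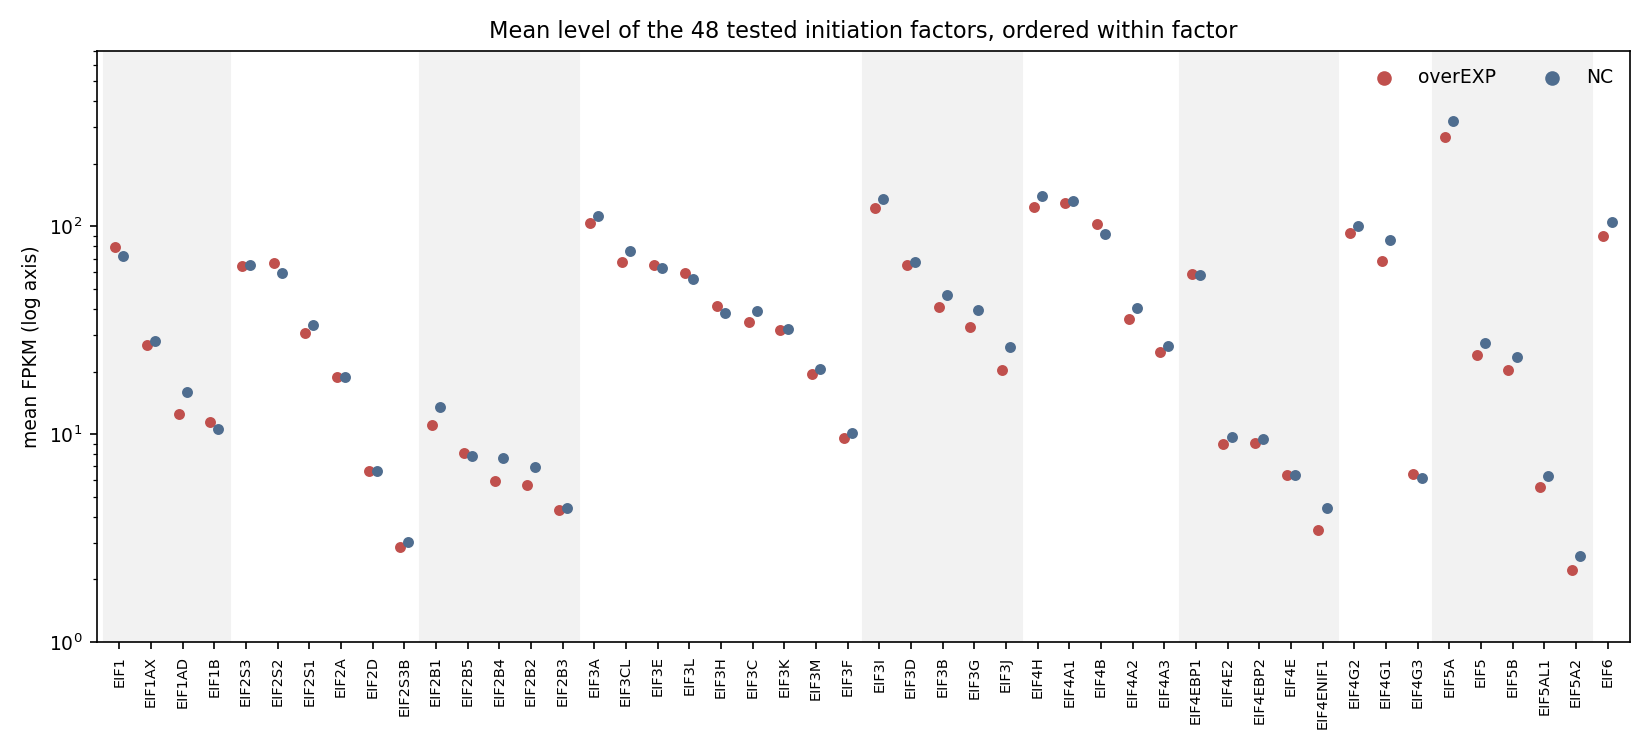
Mean FPKM in overEXP and NC (vertical log axis, n = 3 libraries each) of the 48 tested members, ordered by level within each factor. Levels run from 2.4 FPKM for EIF5A2 to 296 FPKM for EIF5A, and the 2 points of a gene lie close together.

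EIF4G1, EIF3J and EIF1AD belong to different factors. EIF4G1 (ENSG00000114867, chr3:184314495-184335358 of GRCh38, plus strand, GENCODE v44) encodes the scaffold that links the cap, the helicase and eIF3, a protein of 1599 residues in its canonical transcript. It had 65.2, 65.3 and 73.2 FPKM in overEXP replicates 1 to 3, against 84.7, 85.2 and 88.7 FPKM in NC replicates 1 to 3. All overEXP values lay under all NC values, with a gap wider than the spread inside either group, and the log2 fold change was -0.34 (standard error 0.07, adjusted p = 0.044). EIF3J (ENSG00000104131, chr15:44537125-44563029, plus strand) encodes the loosely bound eIF3 subunit that sits near the mRNA entry channel of the small ribosomal subunit. It had 20.7, 19.5 and 20.7 FPKM in overEXP, against 28.2, 25.8 and 24.8 FPKM in NC, and the test gave a difference of -0.35 on the log2 scale (standard error 0.07, adjusted p = 0.0395). EIF1AD (ENSG00000175376, chr11:65996545-66002176, minus strand) encodes a protein with an eIF1A-like domain. It had 12.8, 11.9 and 13 FPKM in overEXP, against 15.9, 15.9 and 16.1 FPKM in NC, and the test gave a difference of -0.33 on the log2 scale (standard error 0.06, adjusted p = 0.0379). The 3 ratios of group means were 0.788, 0.774 and 0.784, in the order EIF4G1, EIF3J and EIF1AD. Fewer cells with the RNA and less RNA in each cell cannot be told apart in such libraries.

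These calls sat close to the threshold. The log2 fold changes stayed negative without any one library (EIF4G1 -0.40 to -0.31, EIF3J -0.39 to -0.30, EIF1AD -0.35 to -0.29), but without overEXP replicate 1, overEXP replicate 2 or NC replicate 1, 2 or 3 none of the 3 genes passed, and without overEXP replicate 3 EIF4G1 (adjusted p = 0.0375) and EIF1AD (adjusted p = 0.0453) passed and EIF3J did not (adjusted p = 0.0583). The highest adjusted p without 1 library was 0.169 for EIF4G1, 0.145 for EIF3J and 0.152 for EIF1AD. None of the 3 passed after median-of-ratios scaling of the libraries (adjusted p = 0.0512, 0.0699 and 0.0634 for EIF4G1, EIF3J and EIF1AD), although relative to the median of all genes their log2 fold changes were close to those of the deposited scale (-0.28, -0.29 and -0.27 after scaling and -0.29, -0.30 and -0.27 as deposited).

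**Figure D4:**
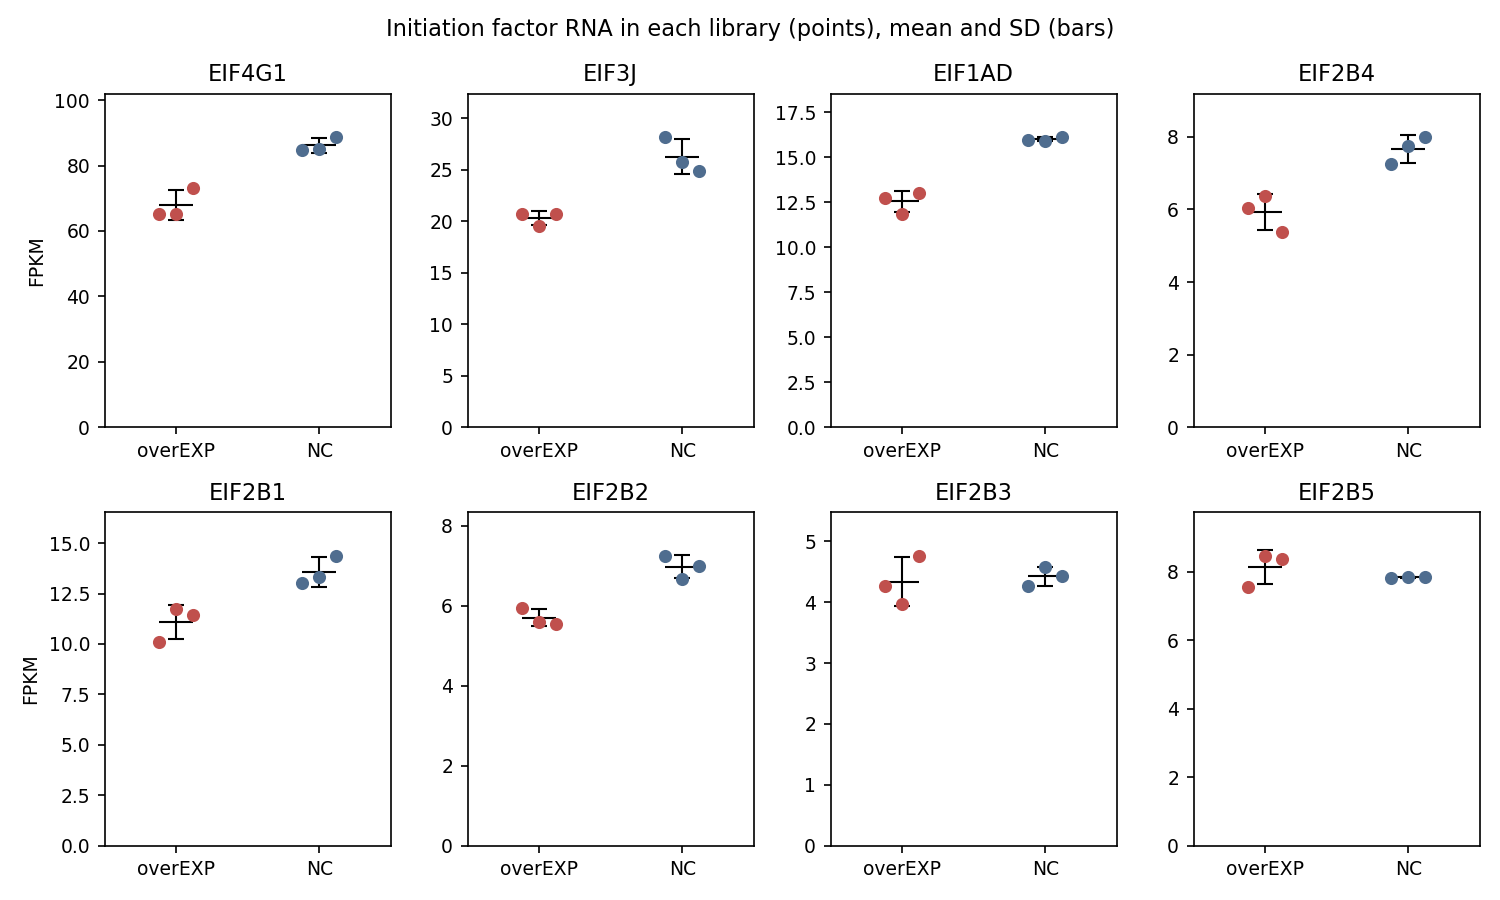
FPKM in each library (points) of overEXP and NC, with mean and SD, for EIF4G1, EIF3J, EIF1AD and the 5 subunits of eIF2B, all axes from 0. The groups are apart for the first 3 genes and for EIF2B4, EIF2B1 and EIF2B2, and overlap for EIF2B3 and EIF2B5.

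The eIF4G family was compared within libraries, where the scaling of a library cancels out. EIF4G2, also called DAP5, is a shorter relative that lacks the eIF4E-binding part, and EIF4G3 is the close paralog of EIF4G1. The EIF4G2 to EIF4G1 ratio of FPKM averaged 1.36 in overEXP and 1.17 in NC, a log2 difference of 0.22 (overEXP 0.45 ± 0.04, NC 0.23 ± 0.015, SD, n = 3 each; exact permutation test, two-sided, p = 0.1). The EIF4G3 to EIF4G1 ratio averaged 0.094 and 0.071 in overEXP and NC, a log2 difference of 0.41 (overEXP -3.40 ± 0.05, NC -3.81 ± 0.10, SD, n = 3 each; exact permutation test, two-sided, p = 0.1). For both ratios every overEXP library was above every NC library, and both differences kept their sign without any one library (0.20 to 0.23 and 0.35 to 0.44). Both ratios have EIF4G1, itself called lower, as denominator, so they are not separate from that call or from each other. A p of 0.1 is the smallest that 3 libraries against 3 allow, so no such ratio could pass, and over the 11 ratios compared the smallest adjusted p was 0.367. EIF4G2 itself had 87.3, 91.6 and 98.6 FPKM in overEXP, against 97.9, 100 and 105 FPKM in NC, with overlapping groups (log2 fold change -0.12, adjusted p = 0.341). EIF4G3 was far lower, at 6.40 ± 0.23 FPKM in overEXP and 6.15 ± 0.55 FPKM in NC (mean and SD, n = 3 libraries each, log2 fold change 0.05).

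**Figure D5:**
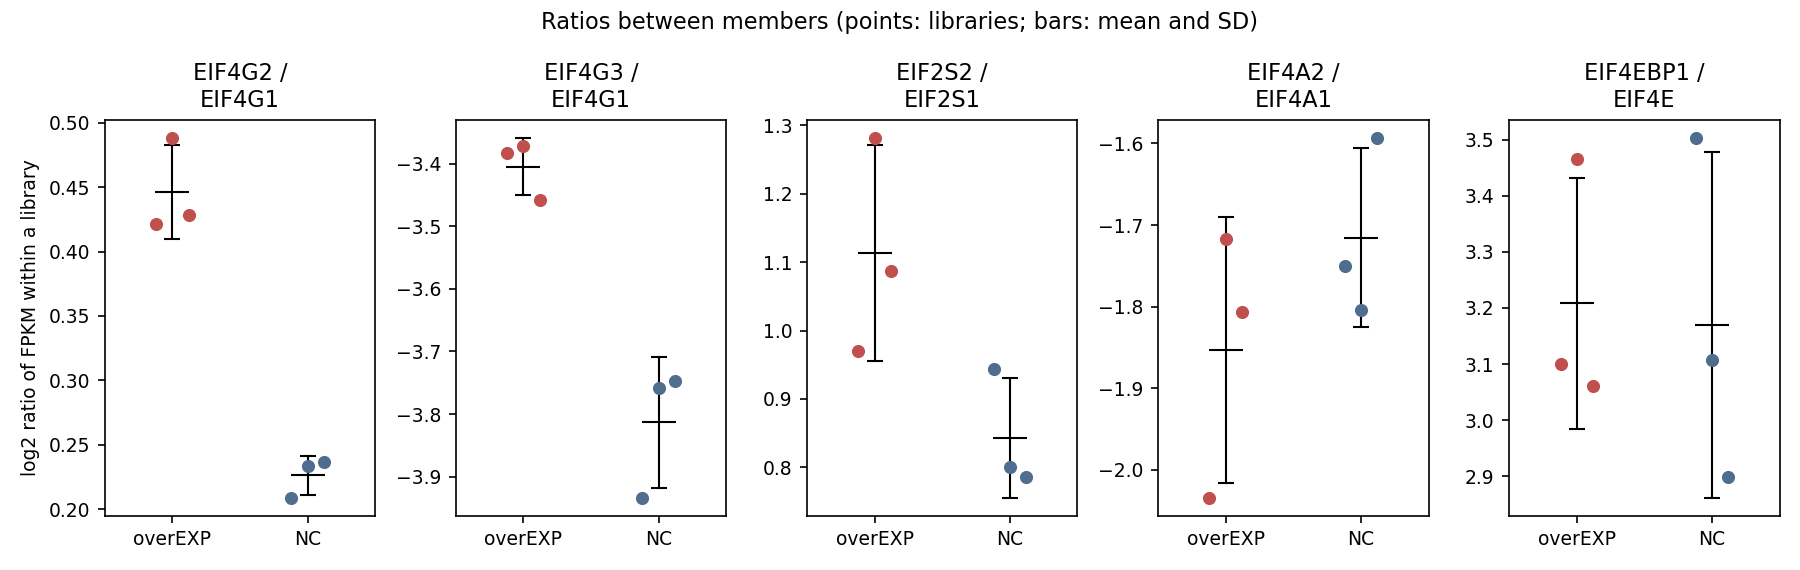
Log2 ratio of FPKM between 2 members within each library (points), with mean and SD, for 5 of the 11 ratios compared. The EIF4G2 to EIF4G1, EIF4G3 to EIF4G1 and EIF2S2 to EIF2S1 ratios lie higher in every overEXP library than in every NC library, and the other 2 ratios overlap.

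The rest of the cap-binding machinery showed no difference that passed the test. EIF4E, the cap-binding protein, had 6.28, 5.87 and 6.89 FPKM in overEXP, against 6.39, 6.32 and 6.37 FPKM in NC. The NC values were tightly grouped inside the overEXP range, and the log2 fold change was -0.01, with a 95% interval from -0.18 to 0.17. EIF4EBP1, whose protein 4E-BP1 holds eIF4E when mTORC1 is inactive and whose gene is also a target of ATF4, had 53.8, 64.9 and 57.5 FPKM in overEXP, against 72.5, 54.5 and 47.5 FPKM in NC. The NC libraries alone spanned more than the overEXP libraries, and the 95% interval of the EIF4EBP1 log2 fold change ran from -0.32 to 0.39. The EIF4EBP1 to EIF4E ratio averaged 9.32 in overEXP and 9.14 in NC, with overlapping groups. EIF4ENIF1, the eIF4E transporter that carries eIF4E into the nucleus and represses bound mRNAs, had 3.26, 3.52 and 3.60 FPKM in overEXP, against 4.42, 4.13 and 4.74 FPKM in NC, apart but not past the test (log2 fold change -0.28, adjusted p = 0.0892). EIF4E2 and EIF4EBP2 had log2 fold changes of -0.11 and -0.06. Among the helicase genes, EIF4A1 had 129, 126 and 133 FPKM in overEXP, against 129, 139 and 131 FPKM in NC (log2 fold change -0.04, and 0.03 after median-of-ratios scaling). The read-through gene SENP3-EIF4A1 overlaps EIF4A1, and its FPKM moved between 7.15 and 18.5 in overEXP libraries and between 7.82 and 31.8 in NC libraries, so the split of reads between the 2 genes is uncertain. EIF4A2 and EIF4A3, the helicase of the exon junction complex, had log2 fold changes of -0.17 and -0.10 with overlapping groups. EIF4H had 119, 124 and 131 FPKM in overEXP, against 145, 136 and 137 FPKM in NC, without overlap (log2 fold change -0.16, adjusted p = 0.215).

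In eIF2B, the exchange factor of eIF2, the 3 subunits of the regulatory part lay apart from the 2 of the catalytic part, a split made after the values were seen. EIF2B4, the delta subunit, had 6.04, 6.36 and 5.38 FPKM in overEXP, against 7.25, 7.76 and 8 FPKM in NC (log2 fold change -0.33, adjusted p = 0.0688). EIF2B1, the alpha subunit, had 10.1, 11.7 and 11.4 FPKM in overEXP, against 13, 13.3 and 14.4 FPKM in NC (log2 fold change -0.27, adjusted p = 0.0954). EIF2B2, the beta subunit, had 5.94, 5.60 and 5.55 FPKM in overEXP, against 7.25, 6.67 and 7 FPKM in NC (log2 fold change -0.25, adjusted p = 0.086). None of the 3 passed, although the groups were apart for each, with overEXP lower, as for 21.7% of all genes tested. The gamma and epsilon subunits, EIF2B3 and EIF2B5, had log2 fold changes of -0.03 and 0.05, and their groups overlapped. EIF2B4 passed when libraries were rescaled to the same sum (TPM, adjusted p = 0.0302) and when genes needed at least 5 FPKM (adjusted p = 0.0492).

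The 3 subunits of eIF2 did not pass the test. EIF2S1, the alpha subunit that stress kinases phosphorylate, had 31.9, 28.7 and 31.8 FPKM in overEXP, against 32.5, 34.4 and 33.2 FPKM in NC (log2 fold change -0.11, adjusted p = 0.357). EIF2S2, the beta subunit, had 62.5, 69.9 and 67.5 FPKM in overEXP, against 62.6, 60.0 and 57.3 FPKM in NC (log2 fold change 0.15, adjusted p = 0.258). Replicate 1 of overEXP lay just inside the NC range. Within libraries the EIF2S2 to EIF2S1 ratio averaged 2.17 in overEXP and 1.80 in NC, with every overEXP library higher (log2 difference 0.27, n = 3 libraries each, exact permutation test, two-sided, p = 0.1, adjusted p = 0.367 over the 11 ratios). EIF2S3, the gamma subunit, had log2 fold change -0.01 with a 95% interval from -0.19 to 0.18. EIF2S3B is a copy of EIF2S3 and may share its reads. EIF2A and EIF2D, which can bring initiator transfer RNA to ribosomes without eIF2, had log2 fold changes of 0.01 and -0.01.

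The eIF3 complex was represented by 14 genes, and 1 of them, EIF3J, was lower. Levels within the complex ran from 9.85 FPKM for EIF3F to 129 FPKM for EIF3I, a ratio of 13.1. Among the 9 genes of the octamer core the log2 fold changes lay between -0.17 and 0.11 with a median of -0.07, and 1 of the 9 (EIF3CL) was apart between groups. Among the 5 other subunits the median was -0.19, all 5 were negative and 4 were apart (EIF3B, EIF3G, EIF3I and EIF3J). Over all genes tested, 61.6% were negative and 21.7% had every overEXP library below every NC library. EIF3G, an RNA-binding subunit, had 34.3, 32.7 and 30.9 FPKM in overEXP, against 43.2, 38.1 and 37.2 FPKM in NC (log2 fold change -0.27, adjusted p = 0.0984). EIF3B had 40.9 ± 0.59 FPKM in overEXP and 46.8 ± 1.19 FPKM in NC (mean and SD, n = 3 libraries each, log2 fold change -0.19, adjusted p = 0.105). EIF3I, which binds EIF3B, had 123 FPKM in all 3 overEXP libraries, against 132, 134 and 139 FPKM in NC (log2 fold change -0.14, adjusted p = 0.24). EIF3A, the large subunit of the core, had 96.8, 99.9 and 116 FPKM in overEXP, against 110, 113 and 114 FPKM in NC, and the groups overlapped (log2 fold change -0.11, adjusted p = 0.465). EIF3C and EIF3CL are near-identical copies on chromosome 16 whose reads can be split between them. EIF3CL had 68.5, 67.7 and 66.2 FPKM in overEXP, against 75.8, 73.4 and 78.5 FPKM in NC (log2 fold change -0.17, adjusted p = 0.154). The sum of both copies was 102, 101 and 104 FPKM in overEXP, against 113, 113 and 120 FPKM in NC, without overlap. EIF3E, EIF3H and EIF3L were on the positive side, with log2 fold changes of 0.05, 0.10 and 0.11 and overlapping groups.

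Of the factors that act at start codon choice and subunit joining, none passed the test. EIF1AD, which passed, was placed with eIF1A by its name, and its part in initiation was not tested. EIF1, which keeps the ribosome scanning past poor start codons, had 78.8, 82.6 and 76.7 FPKM in overEXP, against 72.8, 69.5 and 72.6 FPKM in NC. It was the 1 member with every overEXP library above every NC library (log2 fold change 0.15, adjusted p = 0.218). Its paralog EIF1B had a log2 fold change of 0.11, and EIF1AX, the eIF1A of the X chromosome, of -0.06. EIF5, which makes eIF2 hydrolyse its GTP, had 24.0 ± 1.5 FPKM in overEXP and 27.4 ± 0.96 FPKM in NC (mean and SD, n = 3 libraries each), apart between groups (log2 fold change -0.18, adjusted p = 0.167). EIF5B, the GTPase of subunit joining, had 21.9, 19.0 and 19.9 FPKM in overEXP, against 22.1, 24.0 and 24.5 FPKM in NC (log2 fold change -0.21, adjusted p = 0.163). EIF5A had 280, 264 and 265 FPKM in overEXP, against 366, 310 and 289 FPKM in NC. The groups were apart, but the NC libraries spread widely, and the EIF5A log2 fold change of -0.25 did not pass (adjusted p = 0.201) except after quantile normalization (-0.38, adjusted p = 0.0449). Without NC replicate 1 the EIF5A value was -0.15. EIF5AL1, an intronless copy of EIF5A that may take some of its reads, had a log2 fold change of -0.15. EIF6, which keeps the large subunit from joining too early, had 87.2, 102 and 81.3 FPKM in overEXP, against 111, 102 and 100 FPKM in NC (log2 fold change -0.22, adjusted p = 0.232).

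Protein length was compared because it was not part of the rule. Among genes coding for fewer than 250 residues, the 14 tested members had a median log2 fold change of -0.08, beside 0.0015 over all 2207 such genes. Between 250 and 700 residues the medians were -0.07 (24 members) and -0.06 (5548 genes), and above 700 residues -0.17 (10 members) and -0.08 (2933 genes). Across genes, the Spearman correlation of length and log2 fold change was -0.06 over the 48 members and -0.17 over the 10688 genes tested with a coding length, all read in the same 6 libraries.

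Other genes of the translation pathway were counted from 3 lists. Over all genes tested, 1.25% were higher and 2.98% lower at an adjusted p under 0.05. Of 19 genes of initiation outside the EIF names, all tested, 1 was higher and none lower (2 higher and 5 lower at an unadjusted p under 0.05, where 6.55% of all genes were higher and 16.4% lower), with a median log2 fold change of -0.09. The higher gene was PDCD4, an inhibitor of eIF4A, with 5.56, 7.12 and 6.50 FPKM in overEXP, against 4.12, 4.36 and 4.22 FPKM in NC (log2 fold change 0.49, standard error 0.09, adjusted p = 0.0368). The PDCD4 call lay close to the threshold and was not followed through the alternative settings. Of 13 genes of elongation and termination, 12 were tested and none passed (3 lower and none higher at an unadjusted p under 0.05), with a median of -0.10. Of 22 genes that control eIF2 and eIF4E, 20 were tested, 1 was higher and none lower (2 higher and 6 lower at an unadjusted p under 0.05), with a median of -0.10. The higher one was DDIT4, an inhibitor of mTORC1, with 61.7, 107 and 98.2 FPKM in overEXP, against 28.6, 25.6 and 25.8 FPKM in NC (log2 fold change 1.66, adjusted p = 0.00865). Every overEXP library lay below every NC library for 31.6%, 41.7% and 35% of the tested genes of the 3 lists in this order. This share was 35.4% for the members and 21.7% for all genes tested.

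The libraries themselves bear on these values. EPHX2 had 157, 162 and 181 FPKM in overEXP, against 1.53, 1.96 and 1.5 FPKM in NC. All 5 epithelial markers (EPCAM, KRT8, KRT18, KRT19 and CDH1) were above 1 FPKM in every library, with sums of 943 to 1086 FPKM in overEXP and 1044 to 1370 FPKM in NC. These sums are mostly keratin, and the markers did not move together. EPCAM and CDH1 were higher in every overEXP library than in every NC library. KRT19 was lower in every overEXP library (312, 317 and 289 FPKM, against 451, 380 and 360 FPKM in NC), and KRT8 and KRT18 overlapped. The 3 endothelial genes summed to at most 0.357 FPKM in overEXP and 0.111 FPKM in NC. The immune gene CD68 was above 1 FPKM in every library, and PTPRC and CD3E stayed at or under 0.0871 FPKM. Of 4 fibroblast genes COL1A1 alone was above 1 FPKM in every library, and the sum was 2.42 to 10.8 FPKM in overEXP and 2.32 to 2.76 FPKM in NC, with the highest value in overEXP replicate 2. The part of this in the members' differences was not tested. In overEXP replicate 2, 129 genes had at least 1 FPKM while under 0.1 FPKM in every other library, and 7 or fewer did so in any of the other 5. Without this library 10 members were lower at an unadjusted p under 0.05, none passed the adjusted test, and the median was -0.067 for the members and -0.061 for all genes. The left-out EIF rows that GENCODE v44 types as pseudogenes summed to 133, 122 and 128 FPKM in overEXP, against 136, 138 and 131 FPKM in NC.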

How the data were processed

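RNA of 3 overEXP and 3 NC libraries was sequenced on an Illumina NovaSeq instrument. The authors filtered reads with FastQC, mapped them to GRCh38 with HISAT2 (the submitters' processing notes give 2.0.4), assembled and quantified them with StringTie, and deposited gene-level FPKM per library. The columns of the authors' own comparison (fold change, p-value and q-value) were not used. Groups were taken from the sample descriptions, which the column names repeat.

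Genes that reached an FPKM of 1 in 3 or more libraries were tested with limma 3.58.1 in R 4.3.3 on log2(FPKM + 1), with a variance trend, two-sided, with Benjamini-Hochberg adjustment over all genes tested at 0.05. Fold changes on this scale understate those of low genes. The fit was tested on simulated data. Ratios within libraries were compared by exact permutation (scipy 1.17.1). Of the table's gene IDs, 37906 were found in GENCODE v44, which gave positions, biotypes and the coding length of the canonical transcript. Start windows came from RefSeq on GRCh38.p14. EIF4EBP1, EIF4EBP2 and EIF4EBP3 encode proteins and were kept.

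Values in every library were given for members past the threshold, the 6 with the highest mean FPKM and the member with the smallest adjusted p in each factor. EIF4E, EIF4EBP1, EIF4G2, EIF1, EIF2S1, EIF2B1, EIF2B2 and EIF3G were added after their values were seen. The members and lists were chosen with earlier results of these data known. The alternatives were other pseudocounts, filters and scalings, no variance trend, a replicate block and leaving out each library.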

Additional observations from a re-analysis of the deposited data

How the results depend on the processing

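The median log2 fold change of the members was negative under every alternative run, but their calls depended on most settings. The number of members lower was 3 as reported, 3 with a pseudocount of 0.1, 4 with a filter at 5 FPKM (44 members tested), 5 after rescaling to TPM (EIF2B4 and EIF3G were added), 2 after quantile normalization (EIF3J and EIF5A), and 0 after median-of-ratios scaling, without a variance trend, and without a filter on low values, where 38041 genes were tested. No member was higher in any of these fits. Over all genes, 154 were higher and 366 lower as reported, 94 and 852 after rescaling to TPM, 345 and 359 after median-of-ratios scaling, 330 and 395 after quantile normalization, and 3 and 2 without a filter. The median of the members was -0.25 after rescaling to TPM and -0.037 after median-of-ratios scaling. The median of all genes moved with it, to -0.20 and 0.0038, and the members' median lay 0.05 and 0.04 below that of all genes in these fits. That gap was 0.051 as reported and 0.0064 without overEXP replicate 2. EIF4A1 had a log2 fold change of 0.030 after median-of-ratios scaling, on the other side of 0. With the replicate number as a block, 118 genes were higher and 213 lower and 0 members passed. The deviations of same-numbered libraries correlated at 0.36, -0.02 and 0.37, and not every library correlated best with its own number, so the numbers were not taken as pairs. Leaving out 1 library gave 23 to 199 genes higher, 21 to 383 lower, 0 to 2 members lower and member medians from -0.10 to -0.067. In all, 175 of the values of named members under the alternatives kept their direction and side of the threshold, 30 lost the call, 3 gained it and 1 changed sign, and the 77 values of the ratios moved by less than 1 SD. Some ratio differences did change sign when 1 library was left out. These were EIF1B to EIF1, EIF5A2 to EIF5A, EIF4EBP1 to EIF4E, EIF4EBP2 to EIF4EBP1 and EIF5B to EIF5. The cause of these changes was not tested. The read depth behind the FPKM values is unknown, so its limits could not be stated.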
